A study of Mus musculus with 12 samples.

Results

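Cholesterol is made from acetyl-CoA through mevalonate, squalene and lanosterol, and fatty acids are made from the same acetyl-CoA. The genes of both pathways are switched on together by the sterol regulatory element-binding proteins (SREBPs), transcription factors that SCAP escorts from the endoplasmic reticulum when sterols are low and that INSIG proteins hold back when sterols are plentiful. Stearoyl-CoA desaturases act at the end of fatty acid synthesis and turn saturated into monounsaturated fatty acids. The Yes-associated protein (YAP) is a coactivator of the Hippo pathway that reaches DNA through TEAD factors.

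A set of 29 genes of these pathways was followed among the 24480 genes in the data. Its members were chosen for their place in the pathway, with no measured value in the rule, though earlier results of these data were known. They follow the mevalonate and sterol pathway, its SREBP regulators and fatty acid synthesis. By role they were 18 enzymes of sterol synthesis (7 of the mevalonate pathway, 3 that form squalene and lanosterol, 8 that turn lanosterol into cholesterol), 5 SREBP control genes, 1 sterol carrier (Stard4) and 5 genes of fatty acid synthesis. RNA came from pluripotent mouse embryonic stem cells (ESCs) of the feeder-free E14Tg2a line, kept in serum with leukemia inhibitory factor. In the knockdown, a transient transfection delivered Stealth siRNAs that target Yap1 to the YAP KD cells, while the CTR KD cells received scrambled siRNA. In the overexpression, cells were transiently transfected with a pCAG plasmid carrying mouse YAP (YAP OE), driven by the ubiquitous CAG promoter, or with a control plasmid (CTR OE), given as a GFP plasmid in the labels and as an empty vector in the study's text. Each of the 4 groups had 3 libraries from independent experiments, and no library was shared between the 2 experiments. Each library may be a mixture of cells that did and did not take up the reagent, since uptake in single cells was not measured in these data.

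Libraries held 42926256 to 57240703 expected counts, and replicates varied by 5.66% (knockdown) and 4.43% (overexpression), the biological coefficient of variation that edgeR fits over all genes. Levels are given in CPM, counts relative to the library total, scaled by TMM factors within each experiment. Yap1 fell to 45.3% of the control level in YAP KD and rose to 195% in YAP OE, with every library on the side of its label. Pluripotency markers (Pou5f1, Sox2, Nanog and 8 others) summed to 6353 to 6900 CPM in all libraries, and markers of other cell types (primitive endoderm, trophoblast, fibroblast or feeder, mesoderm and neural) to at most 21.6 CPM for any 1 list, with Lum at or near 0. Several of these sums differed between the groups of an experiment and are given beside the comparisons.

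All 29 genes were expressed. Divided by effective length so that genes could be compared, the mean level in CTR KD was highest for Acly (104 CPM per kilobase), which splits citrate into acetyl-CoA, and for Fdps (70.5), which makes farnesyl diphosphate. Hmgcs1, the enzyme that makes HMG-CoA (44.9), Scd2 (43.5) and Acat2, the cytosolic thiolase (41.4), came next and lay close together. The lowest levels were those of Tm7sf2 (2.70 CPM per kilobase), 1 of the sterol C14 reductases, and Hsd17b7 (2.02), the 3-ketosteroid reductase of the C4 demethylation complex. Of the 2 desaturases, Scd2 stood far above Scd1 (6.24 CPM per kilobase), and of the INSIG genes Insig1 (24.5) stood above Insig2 (4.78).

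**Figure D1:**
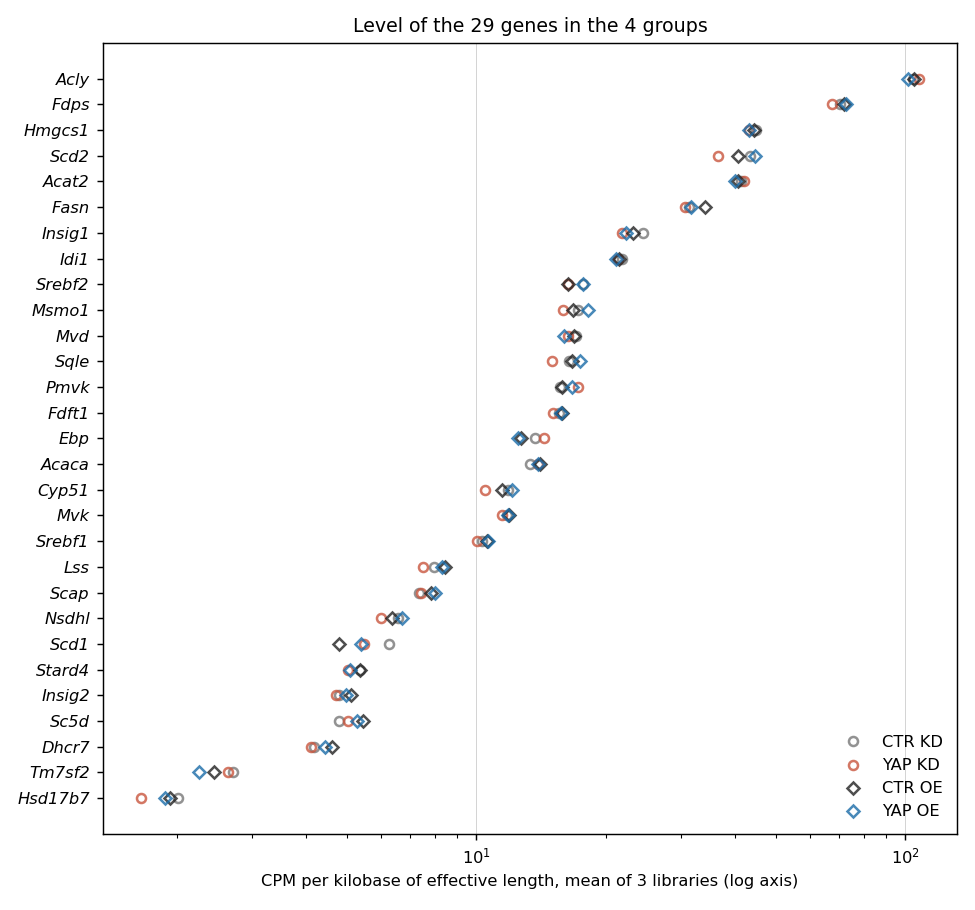
Mean level of the 29 genes in the 4 groups (n = 3 libraries each) on a logarithmic axis, in CPM per kilobase of effective length, sorted by CTR KD. The order runs from Acly at 104 to Hsd17b7 at 2.02 in CTR KD, and the groups lie close together for nearly all genes, with visible gaps at Hsd17b7, Scd1 and Scd2.

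The upstream sequences of 4 members are shown here because the results below turn on them or are read against them. Hsd17b7 and Cyp51 were the sterol enzymes that fell in YAP KD, Insig1 is the feedback gene that came closest to them, and Hmgcs1, whose window holds the textbook sterol regulatory element, did not pass the test. Each is the 250 bases before the RefSeq start site (GRCm38.p6, the build called mm10), 5′ to 3′ on the strand of the gene. For Hsd17b7 the start site used lies inside the gene span given below, which reaches 169969242. The last printed bases of Hsd17b7 therefore fall within that span. Capitals mark matches to the sterol regulatory element TCACNCCAC, its variant TCACCTCA, the E-box CACGTG, the NF-Y box CCAAT and the Sp1 box GGGCGG, on either strand.
Hsd17b7, chr1:169969206-169969455, minus strand: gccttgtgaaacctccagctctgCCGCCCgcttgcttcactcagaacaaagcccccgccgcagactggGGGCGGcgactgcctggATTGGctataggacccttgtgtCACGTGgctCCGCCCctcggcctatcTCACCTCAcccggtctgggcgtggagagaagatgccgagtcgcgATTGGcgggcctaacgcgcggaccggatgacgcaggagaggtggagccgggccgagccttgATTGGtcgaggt
Cyp51, chr5:4104698-4104947, minus strand: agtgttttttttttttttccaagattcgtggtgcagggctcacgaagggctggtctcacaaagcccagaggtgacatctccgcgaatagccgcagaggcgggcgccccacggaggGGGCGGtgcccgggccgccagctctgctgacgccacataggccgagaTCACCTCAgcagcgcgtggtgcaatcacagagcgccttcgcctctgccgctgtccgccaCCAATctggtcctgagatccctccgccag
Insig1, chr5:28071162-28071411, plus strand: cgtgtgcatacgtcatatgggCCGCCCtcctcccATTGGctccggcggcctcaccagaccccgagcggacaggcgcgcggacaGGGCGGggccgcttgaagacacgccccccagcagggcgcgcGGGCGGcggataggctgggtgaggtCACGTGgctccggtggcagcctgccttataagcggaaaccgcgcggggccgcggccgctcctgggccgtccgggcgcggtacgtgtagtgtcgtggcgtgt
Hmgcs1, chr13:119690101-119690350, plus strand: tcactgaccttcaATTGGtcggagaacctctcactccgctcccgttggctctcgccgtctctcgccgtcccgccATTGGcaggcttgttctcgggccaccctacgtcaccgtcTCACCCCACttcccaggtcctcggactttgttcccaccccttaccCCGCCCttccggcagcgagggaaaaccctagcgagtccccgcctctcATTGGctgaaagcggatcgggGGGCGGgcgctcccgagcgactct

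RefSeq windows (250 bases before to 50 after the start) were at hand for 23 of the 29 members. They were missing for Fdps, Fdft1, Sqle, Stard4, Scd1 and Scd2. The NF-Y box was found in 20 of the 23 (87.0%) and in 41.1% of all 27025 genes with a window, and the Sp1 box in 20 of 23 and in 38.2%. Among the 15 sterol enzymes with a window, 14 held an NF-Y box and 14 an Sp1 box. The E-box was found in 5 members (21.7%, Dhcr7, Hsd17b7, Insig1, Sc5d and Scap) and in 8.09% of all genes. The sterol regulatory element TCACNCCAC was found in Hmgcs1 alone (4.35%, against 1.44% of all genes). TCACCTCA, which cannot match the same stretch, was found in Cyp51 and Hsd17b7 alone (8.70%, against 1.37%). It was added to the search after these windows and the calls had been seen. Its presence there and its share beside all genes are therefore a description and test nothing. The TEAD motif GGAATG was found in 0 of 23 windows and in 16.6% of all genes. The windows of the members were richer in G and C (median 62.3%) than all windows (52.7%). That bears on GGGCGG most, and also on motifs with A and T such as GGAATG. Sequence outside the windows was not searched, so TEAD motifs elsewhere near these genes would not be seen. These matches are letters in a window, and binding was not measured here.

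The first comparison asked whether the pathway genes respond when YAP falls. All 29 members were tested among 14606 genes, and 3 were lower in YAP KD: Scd2, Hsd17b7 and Cyp51 (edgeR quasi-likelihood test, adjusted p under 0.05). None was higher, in a comparison in which 2.78% of all genes were called lower and 2.71% higher; 10 members had an unadjusted p under 0.05, as did 19.6% of all genes, and DESeq2 also called none higher. Changes were small, and the 3 genes kept 81.9% to 88.3% of the control level. In 10 members all 3 YAP KD libraries lay below all 3 controls, as they did for 12.7% of all genes, and in 1, Pmvk, all lay above, as for 13.2%. Of the 29 log2 fold changes 22 were negative, with a median of -0.051 against 0.0058 over all genes. Marker lists moved in the same libraries. The 11 pluripotency markers summed to 6679 to 6900 CPM in CTR KD and 6353 to 6669 CPM in YAP KD, without overlap. Their median log2 fold change was -0.10, further from 0 than that of the members, and none was called, with 5 at an unadjusted p under 0.05 and 4 below the controls in every library. Summed fibroblast or feeder markers (6 genes) were at 0.854 to 1.22 CPM in CTR KD and 1.42 to 2.08 CPM in YAP KD, and trophoblast markers (6 genes) at 4.67 to 5.24 and 5.34 to 6.11 CPM, again without overlap and with none called by edgeR. Of the 5 markers of these lists that were tested, 3 had an unadjusted p under 0.05. The 2 trophoblast markers tested went opposite ways (log2 fold change -0.32 and 0.36). Of the 3 fibroblast or feeder markers tested, 2 were positive and 1 was negative. Summed primitive endoderm markers and summed mesoderm and neural markers overlapped between the groups, and none was called. The part of these shifts in the members' values was not tested.

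**Figure D2:**
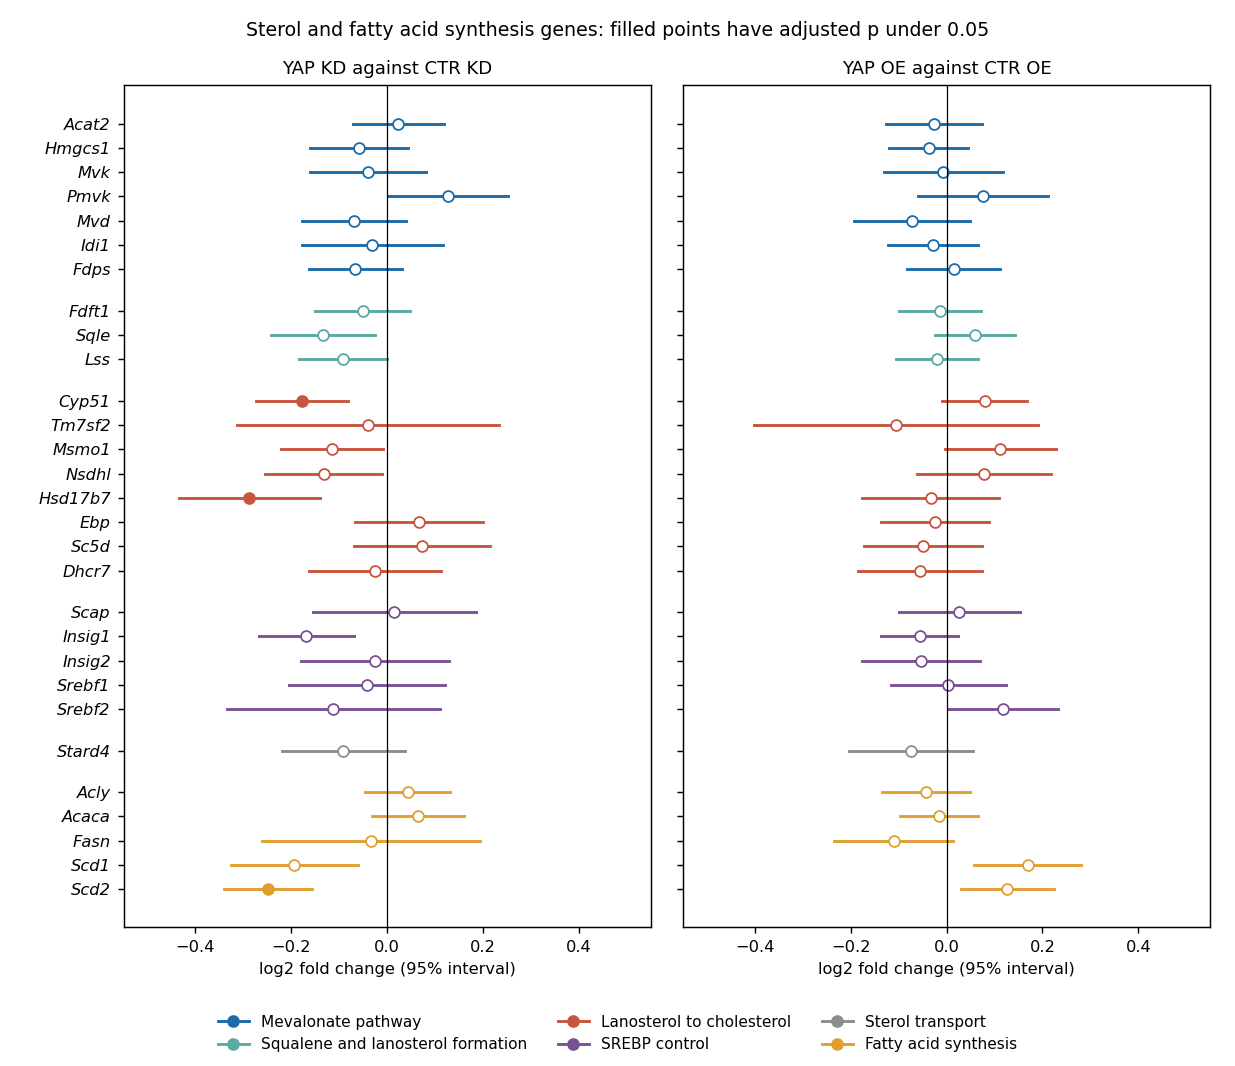
Log2 fold change of the 29 genes with its 95% interval (from the edgeR fit, not adjusted), by role, in the knockdown (left) and the overexpression (right), 3 libraries against 3. Filled points mark an adjusted p under 0.05: Hsd17b7 (-0.29), Scd2 (-0.25) and Cyp51 (-0.18) on the left and none on the right.

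No enzyme of the mevalonate pathway passed the test, and at an unadjusted p under 0.05 there was 1, Pmvk. Their log2 fold changes in YAP KD ran from -0.069 (Mvd, which makes isopentenyl diphosphate) to 0.13 (Pmvk, phosphomevalonate kinase, adjusted p = 0.249 by edgeR), and 5 of 7 were negative. Hmgcs1 had 151, 144 and 158 CPM in CTR KD and 142, 148 and 144 CPM in YAP KD, so the groups overlapped. Pmvk was above the controls in every knockdown library, with 15.7, 16.0 and 16.0 CPM in CTR KD and 18.4, 17.2 and 16.5 CPM in YAP KD. In 1 other enzyme of the 7 all YAP KD libraries lay below all controls.

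The 3 genes that form squalene and lanosterol had negative log2 fold changes, and none passed the test. Sqle encodes squalene epoxidase, a control point of the pathway. It had 40.7, 41.8 and 44.5 CPM in CTR KD and 38.6, 37.4 and 39.7 CPM in YAP KD, with no overlap (log2 fold change -0.13, SE 0.048, adjusted p = 0.157 in edgeR). Lss, the cyclase that makes lanosterol, went from 47.9 to 50.5 CPM in the controls to 45.3 to 46.6 CPM (log2 fold change -0.092, adjusted p = 0.248 in edgeR). Fdft1, squalene synthase, overlapped between the groups (-0.051).

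The members that fell among the sterol enzymes both act between lanosterol and cholesterol. Hsd17b7 had 8.96, 8.92 and 8.78 CPM in CTR KD and 7.46, 6.88 and 7.48 CPM in YAP KD. The 3 control libraries lay within a narrow range, and all 3 knockdown libraries lay well below it. The log2 fold change was -0.29 (SE 0.066, adjusted p = 0.0347 in edgeR), and 81.9% of the control level was left. Cyp51, the lanosterol 14-alpha-demethylase, had 50.2, 48.2 and 50.4 CPM in CTR KD and 42.3, 44.8 and 44.2 CPM in YAP KD. These groups did not overlap either (log2 fold change -0.18, SE 0.043, adjusted p = 0.0430 in edgeR, 88.3% of the control level). Hsd17b7 spans chromosome 1, 169949535 to 169969242, and Cyp51 chromosome 5, 4080674 to 4104697, in mm10.

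These calls lay near the threshold. Both were lost in DESeq2 (adjusted p 0.0769 for Hsd17b7 and 0.0527 for Cyp51), and Cyp51 also with total counts in place of TMM (0.0674). Leaving out any 1 of CTR KD 1, CTR KD 3, YAP KD 1, YAP KD 2 or YAP KD 3 ended both calls, with adjusted p from 0.0732 to 0.149 for Hsd17b7 and from 0.0907 to 0.160 for Cyp51, while the log2 fold changes stayed between -0.31 and -0.25 and between -0.20 and -0.16 over all 6 left-out libraries. Without CTR KD 2 both were called.

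Next to these in the pathway, Msmo1 and Nsdhl, whose products work with Hsd17b7 to remove the methyl groups at C4, were also below the controls in every knockdown library. Msmo1 had 28.9, 27.5 and 28.9 CPM in CTR KD and 25.5, 26.0 and 27.2 CPM in YAP KD (log2 fold change -0.11, adjusted p = 0.216 in edgeR). Nsdhl had 13.1, 13.7 and 13.4 CPM in CTR KD and 12.6, 12.2 and 11.95 CPM in YAP KD (-0.13, adjusted p = 0.211 in edgeR). Neither passed the test. The remaining enzymes of this segment overlapped between the groups: Ebp, the sterol isomerase (0.066), Sc5d, the C5 desaturase (0.072), Dhcr7, the last reductase of the Kandutsch-Russell branch (-0.026), and Tm7sf2 (-0.040, with the widest interval, -0.31 to 0.23, at a mean of 162 expected counts). Over the 8 genes the summed level was 144.7 to 147.9 CPM in CTR KD and 136 to 137.3 CPM in YAP KD. Over all 18 sterol enzymes it was 709 to 725 CPM in CTR KD and 688 to 693 CPM in YAP KD, with 14 of 18 log2 fold changes negative and a median of -0.055.

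**Figure D3:**
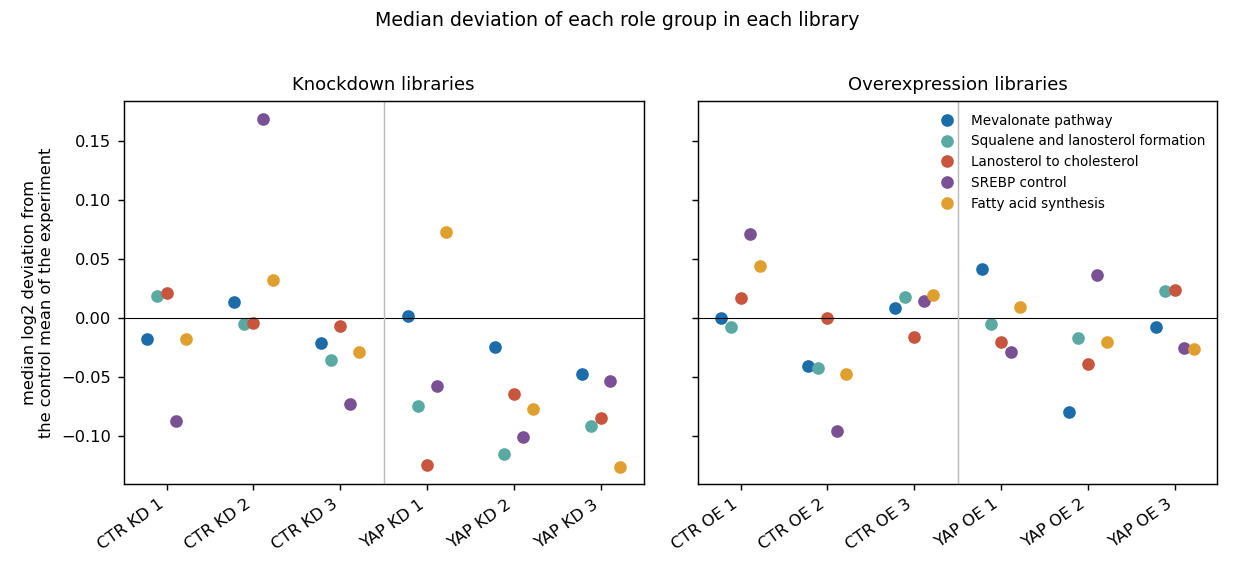
Median log2 deviation of the members of each role group in each library from the control mean of the experiment, in the knockdown (left) and the overexpression (right); Stard4, a single gene, is left out. In all 3 YAP KD libraries the points for squalene and lanosterol formation and for lanosterol to cholesterol lie between -0.12 and -0.065, below those of their controls, and CTR KD 2 stands apart in the SREBP control genes (0.17).

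Among the SREBP control genes Insig1 came closest to the threshold. Insig1, itself a target of SREBP and the sensor that holds it back, had 61.1, 57.9 and 62.7 CPM in CTR KD and 53.2, 53.2 and 55.2 CPM in YAP KD. The groups did not overlap, and the log2 fold change was -0.17 (SE 0.044, adjusted p = 0.0587 in edgeR). It passed with upper-quartile scaling (0.0430), in a fit over all 12 libraries (0.0112) and without CTR KD 2 (0.0135). Under the other settings run it was not called. The adjusted p in edgeR was 0.160 with the replicate block and 0.215 without CTR KD 3. The genes for the transcription factors did not move beyond their spread. Srebf2, the regulator of sterol genes, had 66.0, 92.04 and 75.2 CPM in CTR KD and 74.7, 71.1 and 70.1 CPM in YAP KD (log2 fold change -0.11, SE 0.099). Srebf1, the regulator of fatty acid genes, was at -0.042 and Scap at 0.015. CTR KD 2 was the highest of the 6 knockdown libraries for Srebf2, Srebf1 and Scap, with 242 CPM summed over the 5 control genes against 207 and 216 CPM in the other CTR KD libraries, and the SE of these 3 genes was 0.073 to 0.099 against a median of 0.054 over the members. Insig2 (-0.026) and Stard4, which carries cholesterol between membranes (-0.092, adjusted p = 0.431 in edgeR), overlapped between the groups.

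Of the fatty acid genes Scd2 fell. Scd2, the more abundant, had 221, 235 and 233 CPM in CTR KD and 194, 190 and 196 CPM in YAP KD. The groups lay far apart, and Scd2 had the lowest adjusted p of the 29 genes (log2 fold change -0.25, SE 0.041, adjusted p = 0.00851 in edgeR, 84.1% of the control level). The call held in DESeq2 (8.5e-05) and under the other scalings, filters and tools run, and was lost without CTR KD 3 (0.0555) and without YAP KD 2 (0.0580). Scd1 had 29.2, 28.3 and 29.8 CPM in CTR KD and 25.7, 27.3 and 23.4 CPM in YAP KD, also without overlap (-0.19, SE 0.059, adjusted p = 0.101 in edgeR). The expected counts of Scd1 and Scd2 were not whole in any of the 12 libraries, as happens where RSEM divides reads among similar sequences. With the reads of both summed, an alternative chosen after the values were seen, the log2 fold change was -0.24 (SE 0.039, adjusted p = 0.00764 in edgeR). They are neighbours on chromosome 19 (Scd2 from 44293676 to 44306864, Scd1 from 44394450 to 44407709).

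None of the enzymes before the desaturases passed the test or had an unadjusted p under 0.05. Acly had 435, 455 and 432 CPM in CTR KD and 464, 452 and 447 CPM in YAP KD (log2 fold change 0.043), and Acaca, acetyl-CoA carboxylase, was at 0.063. Fasn, fatty acid synthase, had 261, 358 and 299 CPM in CTR KD and 327, 290 and 281 CPM in YAP KD. Its controls alone spanned more than the whole difference (log2 fold change -0.034, SE 0.10). Expected counts of Acat2, Fdft1 and Lss were also not whole in 11 or 12 libraries, and those of the other 24 members were whole in all.

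**Figure D4:**
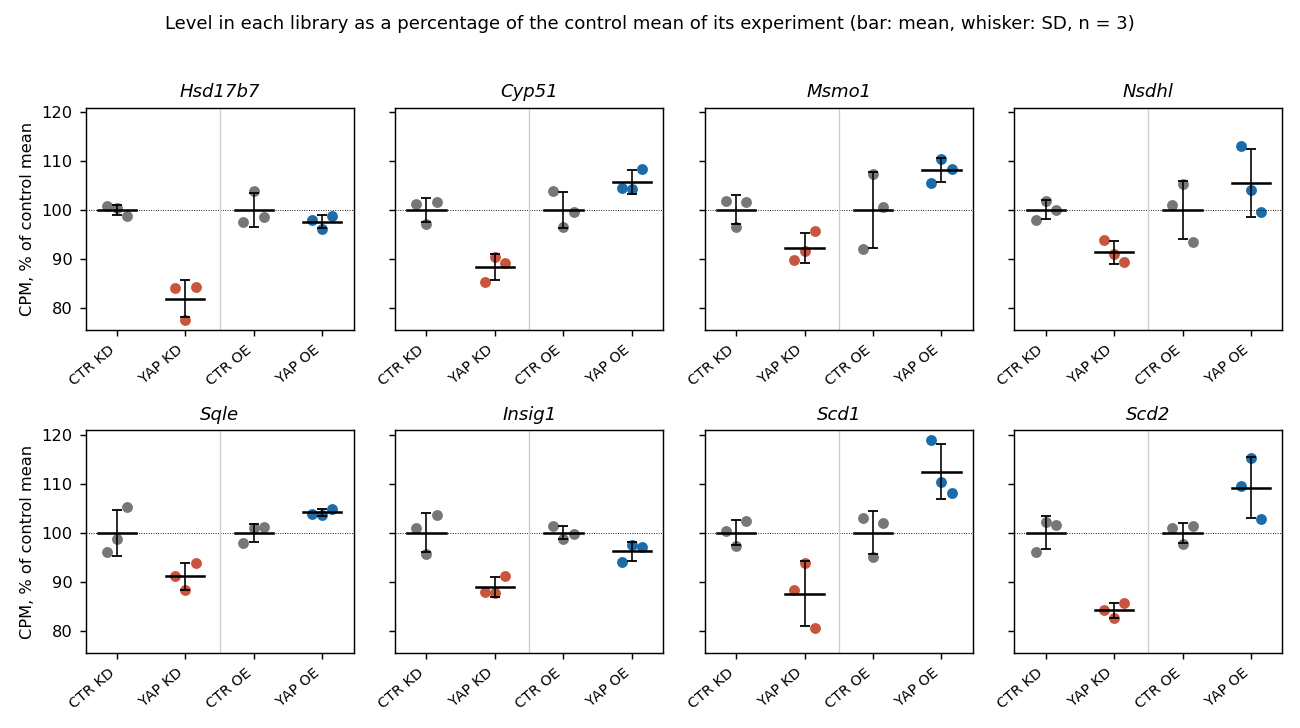
CPM in each library as a percentage of the control mean of its own experiment for 8 genes. Points are libraries, bars the mean and whiskers the SD (n = 3); the vertical axis does not start at 0. The 8 genes are among the 10 of 29 members in which all YAP KD libraries lay below all controls, as for 12.7% of all genes. Their YAP KD points thus lie below their CTR KD points through the choice of genes, and Pmvk, not shown, went the other way. In the overexpression all YAP OE points lie above the controls for Cyp51, Sqle, Scd1 and Scd2 and below them for Insig1.

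The 95% intervals bound what was not called. In the knockdown 22 of the 29 lay within a 1.2-fold change in either direction. The other 7 were those of Hsd17b7, Scd2, Scd1, Cyp51, Insig1, Srebf2 and Tm7sf2. The SE of the 29 ran from 0.040 to 0.12 on the log2 scale, so differences as small as those of the called genes could not be shown for all members at this replication.

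The second comparison asked whether raising YAP moves the same genes. Of 14804 genes tested, 1.66% were called higher and 0.473% lower, and none of the 29 members was called, by edgeR or DESeq2. At an unadjusted p under 0.05 there were 3 (Scd1, Scd2 and Srebf2), against 13.1% of all genes. The log2 fold changes ran from -0.11 (Fasn) to 0.17 (Scd1), 18 were negative, and the median was -0.019 against -0.0025 over all genes. The 95% intervals of 27 of the 29 lay within a 1.2-fold change, all but those of Tm7sf2 and Scd1. All 3 YAP OE libraries lay above the controls in 4 members (Sqle, Cyp51, Scd1 and Scd2), as they did for 10.3% of all genes, and below them in 2 (Sc5d and Insig1), as for 7.8%. In the same libraries trophoblast markers summed to 7.002 to 7.65 CPM in CTR OE and 9.24 to 12.7 CPM in YAP OE, and 2 of the 5 tested were called higher. Primitive endoderm markers (7 genes) summed to 6.24 to 7.74 and 7.97 to 8.79 CPM, and 1 of them, Dab2, was called higher. Neither pair of groups overlapped. Of the 7 primitive endoderm markers, 4 had a positive and 3 a negative log2 fold change. In 1 of them all YAP OE libraries lay above the controls, and in 1 all lay below. Sums over the pluripotency, fibroblast or feeder, and mesoderm and neural markers overlapped, and none of these was called. The part of these shifts in the members' values was not tested.

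Scd1 had 23.0, 21.2 and 22.8 CPM in CTR OE and 26.5, 24.6 and 24.1 CPM in YAP OE (log2 fold change 0.17, SE 0.052, adjusted p = 0.133 in edgeR). Scd2 had 217, 210 and 218 CPM in CTR OE and 235, 248 and 221 CPM in YAP OE (0.13, SE 0.045, adjusted p = 0.210 in edgeR). Every YAP OE library was above every control for both desaturases, by little for Scd2 in YAP OE 3. Cyp51 had 49.7, 46.1 and 47.6 CPM in CTR OE and 49.9, 49.8 and 51.8 CPM in YAP OE (0.080, adjusted p = 0.445 in edgeR), so the groups did not overlap but nearly touched. Sqle had 42.1, 43.4 and 43.6 CPM in CTR OE and 44.7, 44.6 and 45.1 CPM in YAP OE (0.059, adjusted p = 0.576 in edgeR). No rise was detected for Hsd17b7, which had 8.26, 8.81 and 8.35 CPM in CTR OE and 8.30, 8.15 and 8.37 CPM in YAP OE (-0.033, 95% interval -0.18 to 0.11). Insig1 had 58.0, 56.6 and 57.1 CPM in CTR OE and 53.8, 55.8 and 55.6 CPM in YAP OE, the same direction as in the knockdown (-0.056, adjusted p = 0.581 in edgeR). Msmo1 (0.11) and Nsdhl (0.077) overlapped between the groups, and so did Srebf2 (0.12, SE 0.054, adjusted p = 0.363 in edgeR).

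Summed over the genes from lanosterol to cholesterol, the level was 142 to 144.4 CPM in CTR OE and 145 to 149.9 CPM in YAP OE. Summed over all 18 sterol enzymes the groups overlapped, with 706 to 723 CPM in CTR OE and 697 to 731 CPM in YAP OE. The signs in the 2 experiments were counted. A negative log2 fold change in the knockdown with a positive value in the overexpression was seen in 9 of 29 members (31.0%) and in 28.8% of the 14521 genes tested in both. Opposite signs either way were seen in 48.3% of members and 60.9% of all genes, and both negative in 13 members (44.8%) and 19.5%. These are descriptions, and no test was made of them.

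Whether a gene's 2 changes differed was tested in 1 fit over all 12 libraries (knockdown minus overexpression). Of 15049 genes, 5.24% were called lower in this difference and 3.56% higher, 8.8% in all. Of the members, 3 were lower and none was higher, in edgeR and in DESeq2: Scd2 (-0.38, SE 0.062, adjusted p = 0.00122 in edgeR), Scd1 (-0.36, SE 0.081, adjusted p = 0.0106) and Cyp51 (-0.26, SE 0.057, adjusted p = 0.00974). For these 3 genes the call held without each of the 12 libraries in turn and under all of the alternatives. Scd1 and Scd2, the first called in neither experiment alone, and Cyp51 thus changed differently, each against the controls of its own experiment. For Scd1 those controls themselves differed, as given below. How far that gap makes up the difference of Scd1 was not tested. Sqle was at the threshold (-0.19, SE 0.058, adjusted p = 0.0509 in edgeR), and it passed under 3 alternatives and without CTR KD 1 or CTR KD 2. Msmo1 (-0.23, adjusted p = 0.0714) passed only without CTR KD 2 or CTR OE 2. Hsd17b7, which fell in the knockdown and showed no rise, did not pass (-0.26, SE 0.083, adjusted p = 0.0703 in edgeR), nor did Insig1 (-0.11, adjusted p = 0.229).

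**Figure D5:**
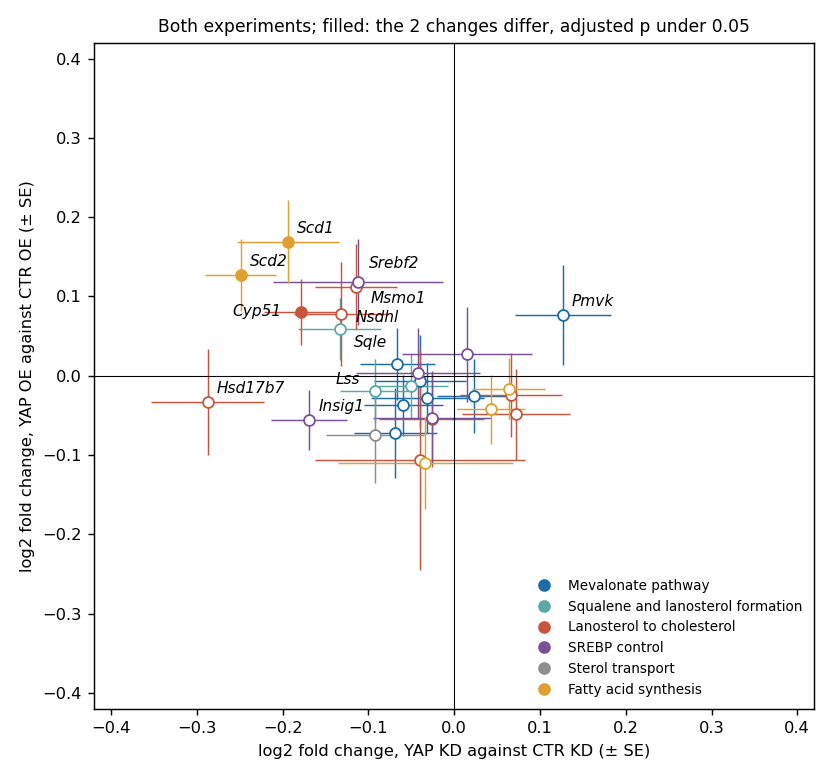
Log2 fold change of each of the 29 genes in the overexpression (vertical) against that in the knockdown (horizontal), each with its SE (3 libraries against 3), coloured by role. Filled points mark the 3 genes whose 2 changes differed at an adjusted p under 0.05, Scd1, Scd2 and Cyp51, at the upper left; genes with an unadjusted p under 0.05 in either experiment are also named.

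The controls of the 2 experiments differed for 1 member. Scd1 was lower in CTR OE (22.3 ± 0.980 CPM, SD, n = 3) than in CTR KD (29.1 ± 0.741 CPM), which is -0.39 on the log2 scale (SE 0.057, adjusted p = 0.00258 in edgeR), while 0.558% of all genes were called lower and 0.771% higher. The transfected reagent and the experiment cannot be told apart here. With each experiment scaled on its own, the level of Scd1 in YAP OE (25.1 CPM) was below that in CTR KD. Its YAP OE libraries lay within the range of its YAP KD libraries.

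A list of 38 further genes of sterol uptake, SREBP processing, sterol efflux and fatty acid synthesis was read from the same fits. In the knockdown 37 were tested, 3 were lower and none was higher, beside 2.78% and 2.71% of all genes, with a median of -0.038. Abca1, the sterol efflux pump, fell from 137, 131 and 134 CPM to 111, 113 and 109 CPM (log2 fold change -0.27, SE 0.040, adjusted p = 0.00544 in edgeR). Mid1ip1, an activator of acetyl-CoA carboxylase, had 19.1, 23.1 and 20.3 CPM in CTR KD and 16.4, 16.8 and 16.6 CPM in YAP KD (-0.33, SE 0.071, adjusted p = 0.0279 in edgeR). Lpin1, a phosphatidate phosphatase of lipid synthesis, had 19.8, 21.2 and 19.3 CPM in CTR KD and 16.2, 17.1 and 17.3 CPM in YAP KD (-0.25, SE 0.056, adjusted p = 0.0304 in edgeR). All 3 genes were lower in every knockdown library. The call of Mid1ip1 was lost without CTR KD 3, YAP KD 1, YAP KD 2 or YAP KD 3 (adjusted p up to 0.103) and that of Lpin1 without any 1 library but CTR KD 2 (up to 0.118). None of the 7 genes of SREBP processing and degradation was called by edgeR, and 0 had an unadjusted p under 0.05. In the overexpression all 38 were tested, none was higher and 1 was lower, beside 1.66% and 0.473% of all genes. It was Abcg1, another sterol transporter, with 36.1, 34.6 and 35.7 CPM in CTR OE and 30.7, 32.2 and 30.2 CPM in YAP OE (-0.19, SE 0.044, adjusted p = 0.0285 in edgeR). That call was lost with total counts (0.0825), in the fit over all 12 libraries (0.0699) and without any 1 library but YAP OE 2 (adjusted p up to 0.138).

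Isoform usage was read from the mean transcript length, which RSEM estimates from the same reads as the counts. It could vary in 9 members with several transcripts, among them Srebf1, Insig2, Scap and Acly. None was called in the knockdown, where 0% of the 3837 genes tested were called, or in the overexpression, where 0.0257% of 3889 were called (limma, adjusted p under 0.05). At an unadjusted p under 0.05 there was also none. The lowest was that of Insig2 in the overexpression, where the mean length was 2563 ± 20.1 bases (SD) in the controls and 2530 ± 13.3 bases with YAP raised. Its limma p was 0.0541 and its adjusted p 0.858. Srebf1 stayed at 4325 bases in both knockdown groups, although isoforms that differ little in length would not be seen in this readout.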

How the data were processed

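RNA-seq of 12 ESC libraries was used. The authors aligned reads to mm10 with STAR and deposited RSEM expected counts, TPM, FPKM, transcript length and effective length per curated RefSeq gene; versions and a strand setting are not given in the sources used here. RSEM divides reads among similar genes, so expected counts need not be whole. The deposited TPM and FPKM values were not used, since small RNA entries took 10.3% to 13.2% of the counts and weigh more per length. Deposited edgeR comparisons were not used here.

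Expected counts (42926256 to 57240703 per library) were rounded and fitted per experiment with edgeR 4.0.16 in R 4.3.3 (filterByExpr, TMM, quasi-likelihood F test, two-sided, Benjamini-Hochberg over all genes tested, adjusted p under 0.05). The difference between experiments used all 12 libraries. The SE is the absolute log2 fold change divided by the square root of F. Transcript lengths of genes that averaged 50 or more expected counts were tested with limma 3.58.1. The fits were first tested on simulated counts, drawn with the same spread for all genes. Of genes changed by 0.25 on the log2 scale, 38.8% were called in the right direction for the knockdown and 52.2% for the overexpression. At a change of 0.5 these shares were 94.0% and 95.5%. All members, and further pathway genes that were called, are named. Members and lists were chosen with earlier results of these data known. No pair of replicates was alike within counting noise (chi-square over genes, 3.54 to 25.7 for each degree of freedom). Promoter windows are from RefSeq, GRCm38.p6. Alternatives were other scalings and filters, removal of 1345 small RNA entries, DESeq2 1.42.0, limma-voom, a replicate block, 1 fit over 12 libraries and left-out libraries.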

Additional observations from a re-analysis of the deposited data

Results flagged for a closer look

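A test of the difference between the 2 experiments (log2 fold change in YAP KD minus that in YAP OE, edgeR over 12 libraries) was passed by 3 of the 29 genes and 5 of the 38 further pathway genes, beside 8.8% of all genes, so both counts lay near the share of all genes. Among the members these were Scd2 (-0.38, adjusted p = 0.00122), Scd1 (-0.36, adjusted p = 0.0106) and Cyp51 (-0.26, adjusted p = 0.00974). The controls of Scd1 differed between the experiments, as given above. Each of the 3 was negative in the knockdown and positive in the overexpression. Of the further genes, 3 went the same way, and their calls held under all alternatives run and without each of the 12 libraries: Mid1ip1 (-0.47, SE 0.093, adjusted p = 0.00479), Lpin1 (-0.35, SE 0.073, adjusted p = 0.00746) and Abca1 (-0.32, SE 0.063, adjusted p = 0.00466). The remaining genes went the other way, higher in the knockdown relative to the overexpression. They were Npc2, a carrier of cholesterol in the lysosome (0.22, SE 0.061, adjusted p = 0.0375 in edgeR), and Slc25a1, the mitochondrial citrate carrier (0.23, SE 0.065, adjusted p = 0.0435 in edgeR). Both calls were lost without most single libraries, with adjusted p up to 0.0964 and 0.107, and neither gene was called in either experiment alone.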

How the results depend on the processing

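The count of members called in the knockdown (3) changed with the processing. It was 1 with DESeq2, 0 with the replicate block and 5 in 1 fit over all 12 libraries, and 0 to 4 over the 6 left-out libraries (0 without CTR KD 3 or YAP KD 2). The replicate numbers did not pair the libraries: same-numbered deviations correlated with r of -0.42, -0.31 and 0.032 in the knockdown and 0.065, 0.089 and -0.030 in the overexpression. Differently numbered knockdown libraries ran from -0.17 (CTR KD 2 with YAP KD 3) to 0.45 (CTR KD 2 with YAP KD 1). Variation shared under another pairing was not tested. With the block the adjusted p was 0.0712 for Scd2, 0.135 for Hsd17b7 and 0.169 for Cyp51, and the calls of the further pathway genes were lost as well: 0.0569 for Abca1, 0.0809 for Mid1ip1 and 0.113 for Lpin1 in the knockdown, 0.0631 for Abcg1 in the overexpression, and 0.0995 for Npc2 and 0.0675 for Slc25a1 in the difference. Abca1 was called in the knockdown without each of the 6 libraries. Genes called in the knockdown (802) were 193 with that block, 1261 in the fit over 12 libraries and 298 to 1019 over left-out libraries, with 1019 without CTR KD 2. In the overexpression genes called (316) were 556 with no filter beyond 1 count, 280 with the block and 154 to 327 over left-out libraries, and no member was called under any setting run. Members called in the difference (3) numbered 3 to 5 over left-out libraries, with 5 without CTR KD 2, and 3 to 4 under the other settings. For the control comparison the 1 call held in all settings run. No named gene that was called reversed its direction. Of the member signs in the knockdown, 22 were negative under every scaling and tool run, and 18 without CTR KD 2. Members had 162 (Tm7sf2) to 21788 (Acly) mean expected counts.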
